A study of Zea mays with 2 samples.

Results

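Transcripts of oil storage were followed in RNA from maize (Zea mays) endosperm, collected 15 days after pollination from dek33, a mutant with defective kernels, and from wild type. The genes were picked by gene ID, 6 of the 33283 genes in the files: the oleosins Zm-I, Zm-II and ole17, a steroleosin, a caleosin and a gene described as diacylglycerol O-acyltransferase 1. The labels give endosperm as the tissue and kernel as the source, and state neither the dek33 allele nor the genetic background. The dek33 gene is known to encode PyrR, a reductase of riboflavin synthesis, and the mutant has been studied for its oil bodies. The series text describes triplicates, but the files hold 1 value per gene and genotype, so nothing below has a replicate check. The values of each genotype are called a library below, and whether they come from 1 library, a pool or a mean is not given. The differences are between 2 libraries and carry no error and no p-value.

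Plant seeds store triacylglycerol in oil bodies, droplets with a lipid core and a coat of phospholipid and protein. Oleosins are the main coat proteins and anchor in the droplet by a long hydrophobic hairpin, which keeps droplets from fusing. Caleosins are coat proteins that bind calcium, and steroleosins are coat proteins with a sterol dehydrogenase domain. Diacylglycerol acyltransferases add the last fatty acid to make triacylglycerol. In maize kernels most oil lies in the embryo, chiefly the scutellum, with some in the aleurone and little in the starchy endosperm.

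Values are FPKM, fragments scaled by the length of the transcript and the size of the library, so that levels can be set between genes. Their sum was 761571 for dek33 and 672660 for wild type, and the reads behind them are unknown. Log2 ratios are log2((dek33 + 1)/(wild type + 1)), which understates the difference of low genes. A gene was called lower or higher at 2-fold or more on this scale, with at least 5 FPKM in 1 or both libraries. Over the 21688 genes reaching 1 FPKM in 1 or both libraries the median log2 ratio was 0.44, and centred log2 ratios have it subtracted. PyrR itself (GRMZM2G090068) had 6.44 in dek33 and 4.55 in wild type, which does not check the labels, since a transcript can persist in a mutant. Transcripts of starchy endosperm were present in both libraries. The 19 genes described as zeins, storage proteins of that tissue, made up 16.7% of summed FPKM in dek33 and 31.2% in wild type. A gene with a RefSeq symbol of the alpha zein series (GRMZM2G346895) is not among them. Of the 19, 3 were listed at 0 in wild type and not in dek33, where they ranked 1 to 3 of all genes with 24482, 22884 and 11333 FPKM. Whether zein genes of like sequence exchange reads was not tested, so single zein values are uncertain. With those 3 the zein sum in dek33 was 126867 FPKM and without them 68168, against 209998 in wild type.

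All 3 oleosins of the rule and the steroleosin were lower in the dek33 library, while the caleosin and the acyltransferase were not called. Thus 4 of the 6 genes were called lower and 0 higher. Over the 14348 genes compared, 4.02% were called lower and 14.8% higher. The 6 genes had a median log2 ratio of -3.12, against 0.52 over all genes compared. Centring left the same counts for the 6 genes, with 6.79% of all genes then called lower and 4.4% higher. In bulk tissue, fewer cells of a type and less RNA per cell cannot be told apart.

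Oleosin Zm-I (GRMZM2G337229, ole16 in RefSeq synonyms, chromosome 2, 21389641 to 21391610, B73 RefGen_v3) had 251 FPKM in dek33 and 2332 in wild type. It ranked 28th from the top of all genes in wild type and 306th in dek33. Its FPKM was 9.31-fold lower in dek33, a log2 ratio of -3.21, the 59th lowest of the genes compared.

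Oleosin Zm-II (AC206941.2_FG002, chromosome 5, 12302727 to 12303287) had 123 FPKM in dek33 and 1015 in wild type. The FPKM was 8.26-fold lower in dek33, with a log2 ratio of -3.04. In rank this gene went from 53rd in wild type to 784th in dek33. Ole17 (GRMZM2G480954, chromosome 1, 263817609 to 263818594) had 58.3 FPKM in dek33 and 922 in wild type, close to Zm-II in wild type and below it in dek33. This was 15.8-fold lower, a log2 ratio of -3.96 and the 20th lowest of all genes compared.

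Steroleosin (GRMZM2G108338, chromosome 2, 69213095 to 69232581) had 1.33 FPKM in dek33 and 42.9 in wild type. Its log2 ratio of -4.24 was the lowest of the 6 and the 14th lowest among all genes compared. The FPKM ratio, with no pseudocount, was 32.3-fold, and it rests on a low value in dek33. With a pseudocount of 5 the log2 ratio was -2.92, and the steroleosin then had the smallest difference of the 4 lower genes. The printed locus of 19487 bases is also that of an uncharacterized gene (GRMZM2G108255), which had 2.09 in dek33 and 0.888 in wild type.

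The caleosin (GRMZM2G342685, chromosome 1, 27861841 to 27869120) had 190 FPKM in dek33 and 131 in wild type. It ranked 432nd in dek33 and 428th in wild type, so its place in the library hardly differed. Its log2 ratio was 0.53, or 0.092 after centring, and 51.5% of genes compared had a ratio as low or lower. In wild type it stood far below the 3 oleosins, and in dek33 it was above Zm-II and ole17 and below Zm-I.

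Diacylglycerol O-acyltransferase 1 (GRMZM2G042356, chromosome 4, 162085764 to 162089095) had 17.0 FPKM in dek33 and 11.7 in wild type. Its log2 ratio of 0.50, or 0.064 after centring, was close to that of the caleosin. The name is the description in the files, and which acyltransferase family the gene belongs to was not checked.

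**Figure D1:**
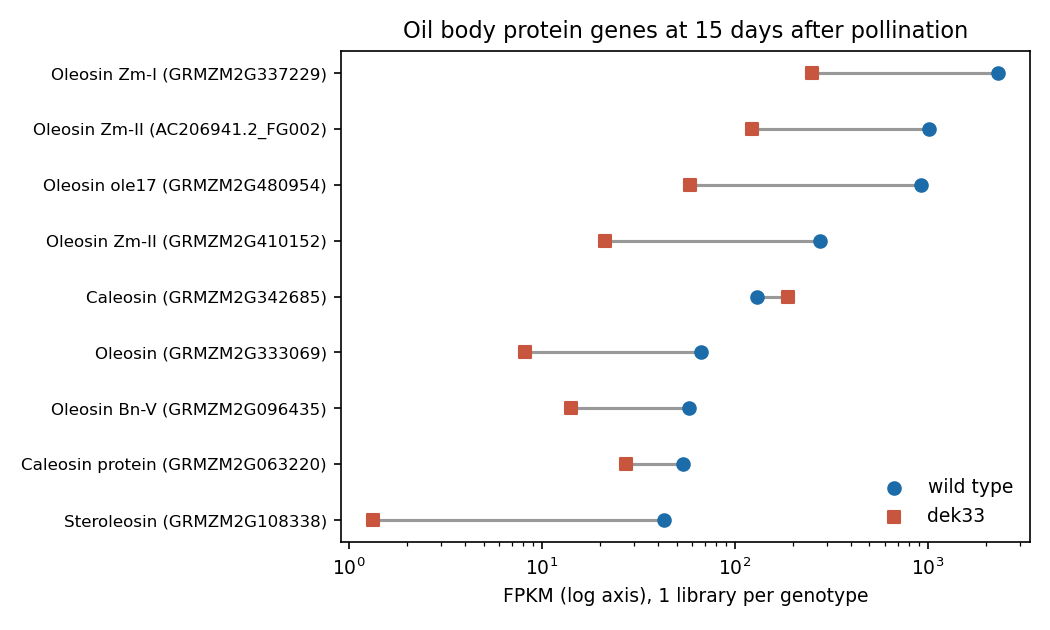
FPKM (log axis) of the 9 genes described as oleosin, caleosin or steroleosin, in the wild type library (circles) and the dek33 library (squares), 1 library each; lines join the values of a gene. The 6 oleosins and the steroleosin are lower in dek33, caleosin GRMZM2G342685 has 190 in dek33 against 131 in wild type, and the other caleosin has 27.2 against 54.1.

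**Figure D2:**
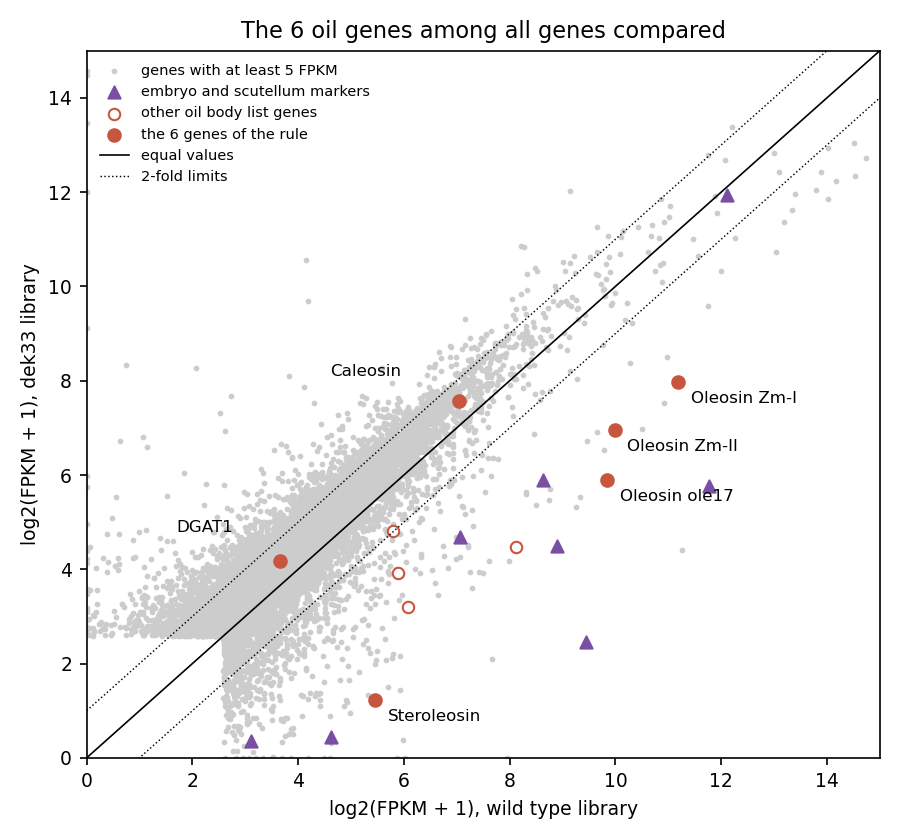
Level in the dek33 library against level in wild type, both as log2(FPKM + 1), for all 14348 genes with at least 5 FPKM in 1 or both libraries; the solid line marks equal values and the dotted lines 2-fold limits. The 3 oleosins and the steroleosin (filled circles) lie below the cloud of genes, with log2 ratios from -3.04 to -4.24, and the caleosin and the acyltransferase (DGAT1) lie within it.

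The 9 genes described as oil body proteins comprise 5 of the 6 genes and 4 others. Of the 9, 7 were called lower and 0 higher, with a median log2 ratio of -3.04, and after centring 8 were lower and 0 higher. Over all genes compared, 4.02% were called lower and 14.8% higher, and after centring 6.79% and 4.4%. Of the 4 others, 3 were called lower, and all 3 are oleosins. A gene also described as oleosin Zm-II (GRMZM2G410152, on chromosome 9) had 21.3 FPKM in dek33 and 276 in wild type, a log2 ratio of -3.63. An oleosin on chromosome 1 (GRMZM2G333069) had 8.14 and 66.6, a log2 ratio of -2.89. Oleosin Bn-V (GRMZM2G096435) had 14.1 and 58.1, the smallest difference of the 6 oleosins, with a log2 ratio of -1.97.

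The level of all 6 oleosins together was 475 FPKM in dek33 and 4669 in wild type, a 9.83-fold difference. Single oleosins ranged from 4.12-fold to 15.8-fold lower. The locus of GRMZM2G333069 is shared with an uncharacterized gene (GRMZM2G032104), which went the other way, with 13.5 in dek33 and 5.76 in wild type. The 2 genes described as Zm-II may be close copies that exchange reads, so their single values are uncertain. Their sum was 144 in dek33 and 1291 in wild type, 8.96-fold lower.

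The 2 caleosins differed from each other. The second (GRMZM2G063220) had 27.2 FPKM in dek33 and 54.1 in wild type, a log2 ratio of -0.96. That is just short of the 2-fold limit, and after centring, at -1.41, it was called lower. The 2 caleosins thus had ratios on opposite sides of 0 as deposited, and summed to 217 FPKM in dek33 and 185 in wild type.

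Ratios between oil body genes within a library do not depend on how the libraries are scaled to each other. Among the oleosins, Zm-I held 49.9% of oleosin FPKM in wild type and 52.7% in dek33. The chromosome 5 Zm-II gene held 21.7% in wild type and 25.8% in dek33. Ole17 held 19.7% and 12.3%, and Bn-V 1.24% and 2.97%. The 3 oleosins of the rule held 91.4% of oleosin FPKM in wild type and 90.8% in dek33, so their joint share differed by less than 1 percentage point.

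Across coat protein classes the makeup of transcripts differed. Protein was not measured, and whether the classes are transcribed in the same tissue was not tested. Oleosins made up 95.3% of the FPKM of the 9 genes in wild type and 68.5% in dek33. Caleosins made up 3.78% in wild type and 31.3% in dek33. For each 1000 FPKM of oleosin, caleosin GRMZM2G342685 had 28.0 in wild type and 399 in dek33, a 14.2-fold higher ratio. Most of that difference is the oleosin sum, 4669 in wild type and 475 in dek33, since the caleosin itself had 131 and 190. Steroleosin had 9.19 in wild type and 2.79 in dek33 on the same measure, 3.29-fold lower. The direction of the steroleosin ratio turned with a pseudocount of 5, where the log2 difference was 0.36 against -1.72 without one.

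**Figure D3:**
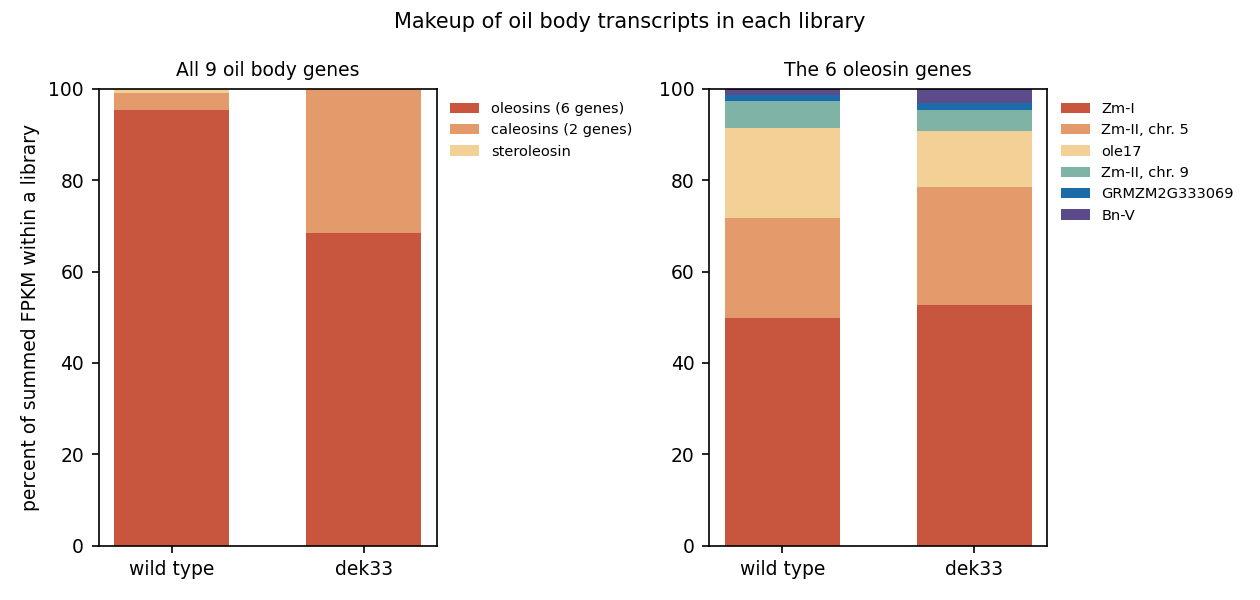
Percent of summed FPKM within each library: on the left the 9 oil body genes by class, on the right the 6 oleosin genes; each bar is 1 library. Oleosins fill 95.3% of the left bar in wild type and 68.5% in dek33, while on the right Zm-I fills 49.9% and 52.7%.

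Genes matched by name to triacylglycerol synthesis had a median ratio near that of all genes compared. No gene matched as a phospholipid:diacylglycerol acyltransferase, phosphatidate phosphatase, lipin or cholinephosphotransferase, so the list covers part of the pathway. The 11 genes run by name from glycerol-3-phosphate acyltransferases to diacylglycerol acyltransferases, and which of them serve storage oil was not checked. Of the 11, 7 had at least 5 FPKM, all described as acyltransferases, with 0 lower and 0 higher before and after centring. With 4.02% lower and 14.8% higher over all genes, a count of 0 among 7 is near the background. Their median log2 ratio was 0.50, against 0.52 over all genes compared. The most abundant was the 1-acyl-sn-glycerol-3-phosphate acyltransferase PLS1 (GRMZM2G037104), an enzyme of the second acylation, at 60.5 FPKM in dek33 and 42.3 in wild type. A gene described as a zeta form of that acyltransferase (GRMZM2G123987) had 42.9 and 29.8, and which step it serves was not checked. A further PLS1 gene (GRMZM5G878139) had the highest ratio of the list, 31.0 in dek33 and 15.5 in wild type, at a log2 ratio of 0.96 just inside the limit.

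The lowest ratio of the synthesis list belonged to another gene described as diacylglycerol O-acyltransferase 1 (GRMZM2G050641), with 13.4 FPKM in dek33 and 17.6 in wild type and a log2 ratio of -0.36. The 2 genes with that description thus had ratios on opposite sides of 0, and their sums were close, 30.4 in dek33 and 29.2 in wild type. A 1-acyl-sn-glycerol-3-phosphate acyltransferase 4 gene (GRMZM2G014981) had 3.91 and 5.22, a log2 ratio of -0.34. One gene of the list, a glycerol-3-phosphate acyltransferase 8 (GRMZM2G020320), was listed at 0 in dek33 and had 0.136 in wild type.

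Of 12 genes described as lipases of triacylglycerol or monoglyceride or as patatins, 1 had at least 5 FPKM. This triacylglycerol lipase (GRMZM2G154687) had 12.7 FPKM in dek33 and 27.9 in wild type, a log2 ratio of -1.08, which was called lower. It was no longer called with a pseudocount of 5, at -0.90. Among regulators, viviparous-1 (GRMZM2G133398), a B3 factor of seed maturation and the maize counterpart of Arabidopsis ABI3, had 5.86 in dek33 and 12.7 in wild type, just past the 2-fold limit. A gene described as WRI1 transcription factor2 (GRMZM2G174834) had 6.84 and 9.85 and was not called. WRI1 factors are known to activate fatty acid synthesis genes. Leafy cotyledon1 (GRMZM2G011789), a factor of embryo development, had 2.12 and 0.295, below the 5 FPKM minimum in both. The names FUS3 and ABI5, and ABI3 under that name, matched no gene.

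Most markers of the embryo were lower in dek33, as were the oleosins and the steroleosin. Leafy cotyledon1, placed with the regulators and below 5 FPKM in both libraries, was higher, at 2.12 in dek33 and 0.295 in wild type. Of the 8 genes of the embryo and scutellum list, 7 were called lower and 0 higher, against 4.02% and 14.8% of all genes compared. Their median log2 ratio was -3.47, and none was listed at 0 in either library. The list summed to 4080 FPKM in dek33 and 9652 in wild type. Aquaporin TIP3.1 (GRMZM2G037327) alone had 3917 and 4438. A gene described as TIP3-1 (GRMZM2G305446) had 21.5 in dek33 and 475 in wild type, and TIP3-2 (GRMZM2G103983) had 24.7 and 132. Without GRMZM2G037327, set apart after its value was seen, the sums were 163 and 5214. The late embryogenesis protein EMB564 (AC233879.1_FG002) had 53.2 in dek33 and 3482 in wild type. Globulin-1 (GRMZM2G067919), a storage protein of the embryo, had 58.8 and 394, a log2 ratio of -2.72. How the endosperm was separated from the embryo, and how completely, is not stated in the labels. The part of embryo tissue in the oleosin and steroleosin differences was not tested.

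Genes listed as aleurone markers were taken to stand for the other oil-bearing tissue of the kernel. Of 13 genes, 5 had at least 5 FPKM, with a median log2 ratio of 0.24. Of these 0 were called lower and 0 higher, which with 4.02% and 14.8% called over all genes is near the background for so few genes. Of the 5, GRMZM6G474234 is described as uncharacterized and was matched under the name a2. The others were AL-9, nkd1 (GRMZM2G129261, 87.6 in dek33 and 65.1 in wild type), nkd2 (GRMZM5G884137, 34.2 and 37.7) and dek1 (GRMZM2G321753, 27.4 and 22.6). Whether nkd1, nkd2, dek1 and GRMZM6G474234 are transcribed in the aleurone alone was not checked. The leucoanthocyanidin dioxygenase matched under a2 (GRMZM2G345717) was below 5 FPKM in both libraries. The 13 summed to 916 FPKM in dek33 and 783 in wild type, mostly AL-9 (GRMZM2G091054) with 739 and 627, and the pigment regulator r1 (GRMZM5G822829) was at or near 0 in both libraries, listed at 0 in dek33 with 0.00826 in wild type. No gene matched the markers thk1 and ltp2. All 6 basal transfer layer markers had lower FPKM in dek33 and summed to 208 and 411. Of them 2 were called lower as deposited, where 4.02% of all genes were, and 5 after centring, where 6.79% were. The marker mrp1 matched no gene. Of the 19 genes described as zeins, 13 were called lower and 3 higher, against 4.02% and 14.8% of all genes compared. Those 3 were listed at 0 in wild type. The starchy endosperm list held 25 genes, and those that are not zeins were not called, before or after centring. Opaque-2 (GRMZM2G015534) had 466 FPKM in dek33 and 245 in wild type, and bt2 (GRMZM2G068506) 3700 and 1868. The marker sh2 (GRMZM2G429899) had 2660 and 1937, and genes matched under pbf1 had 82.5 and 68.7 (GRMZM2G146283) and 17.5 and 14.6 (GRMZM2G146267). Of those not zeins, only wx1 (GRMZM2G024993) had lower FPKM in dek33, at 3036 and 3904.

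**Figure D4:**
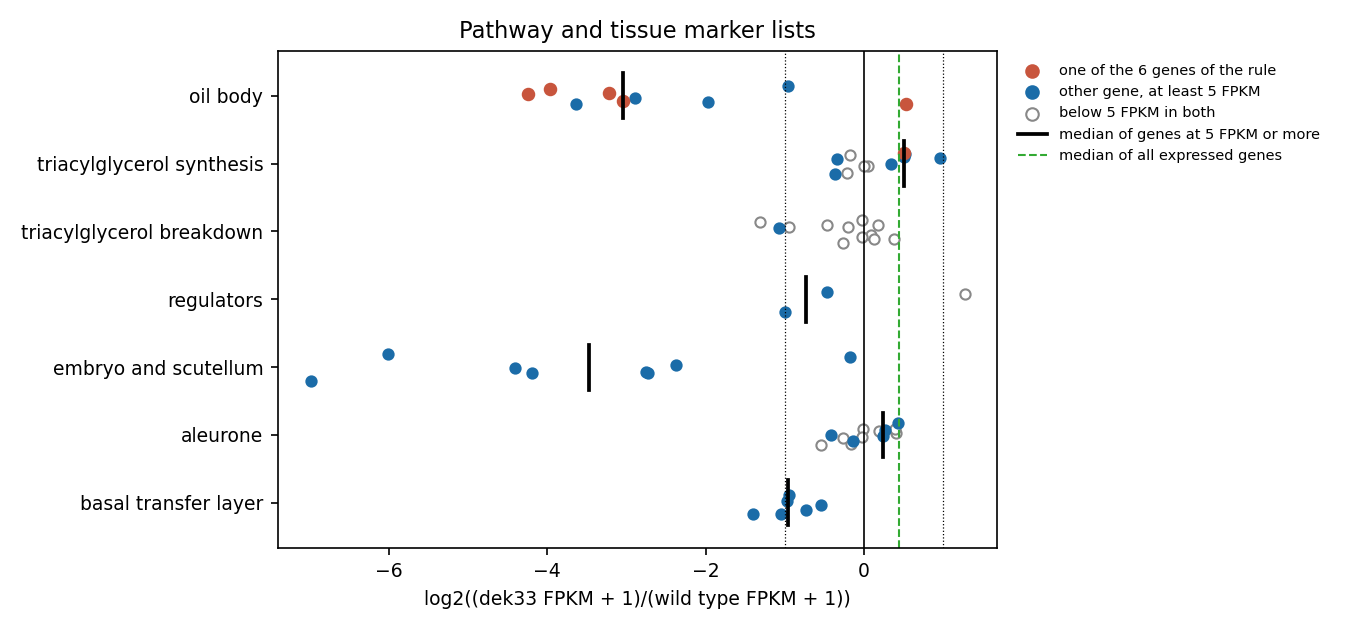
Log2((dek33 FPKM + 1)/(wild type FPKM + 1)) of each gene in 7 lists; filled points have at least 5 FPKM in 1 or both libraries, bars are their medians, dotted lines are the 2-fold limits and the dashed line is the median of all expressed genes at 0.44. The oil body median of -3.04 and the embryo median of -3.47 stand left of the limit, while the synthesis median of 0.50 and the aleurone median of 0.24 lie between the limits.

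The 3 genes nearest to each of the 6 were found by the distance of log2(FPKM + 1) over the 2 libraries, the 6 left out. Nearest to oleosin Zm-I were a 22kD alpha zein 5 (GRMZM2G088365, distance 0.52), a subtilisin-chymotrypsin inhibitor CI-1B (GRMZM2G012806, 0.57) and an uncharacterized protein (GRMZM2G346895, 0.99) whose RefSeq symbol is of the alpha zein series. Nearest to Zm-II were RAD23 (GRMZM2G035417, 0.34), a Bowman-Birk type inhibitor WIP1 (GRMZM2G011523, 0.46) and another CI-1B inhibitor (GRMZM2G012928, 0.51). Ole17 had a defensin-like protein 1 (GRMZM2G368890, 0.63), the same WIP1 gene (0.65) and an EC protein homolog (GRMZM2G402564, 0.82). A seed maturation protein (GRMZM2G448627, 0.38) was second for the steroleosin, between the uncharacterized genes GRMZM2G164486 (0.19) and GRMZM2G007252 (0.51).

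Caleosin and the acyltransferase lay in the dense cloud of genes, with distances of at most 0.021 to their nearest. For the caleosin these were pyruvate decarboxylase isozyme 3 (GRMZM2G087186), an uncharacterized gene (GRMZM2G156110) and the DNA-binding protein MNB1B (GRMZM5G834758). For the acyltransferase they were autophagy-related protein 12 (GRMZM5G842517) and uncharacterized genes (GRMZM2G022065 and GRMZM2G156069). With 2 libraries such likeness says only that levels were alike in both.

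**Figure D5:**
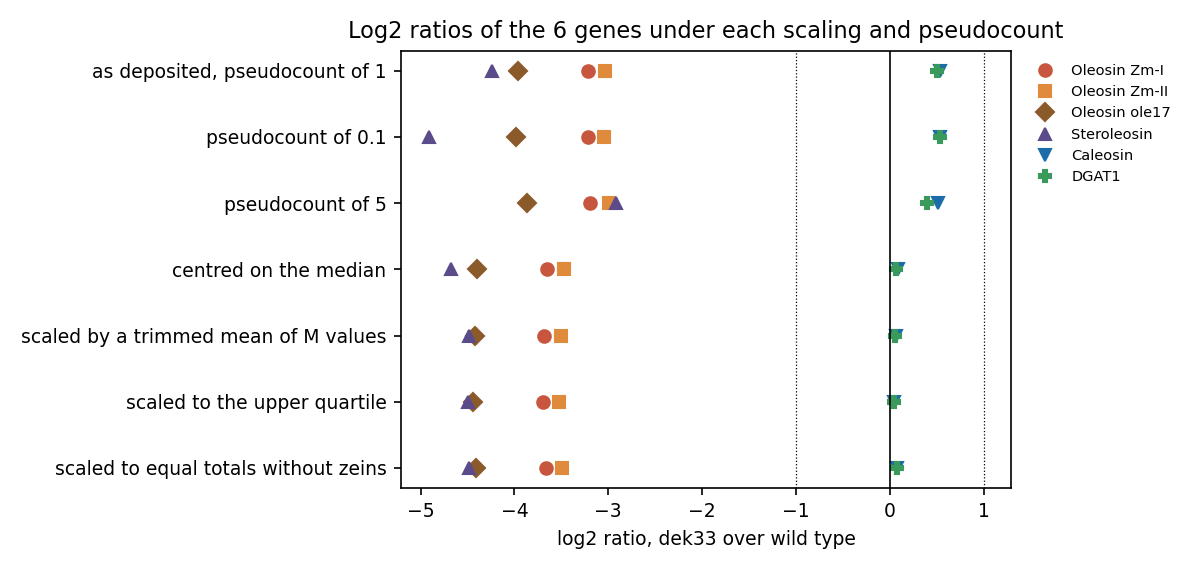
Log2 ratio of each of the 6 genes (dek33 over wild type) under the pseudocounts and scalings named on the vertical axis; dotted lines mark 2-fold. The 3 oleosins and the steroleosin stay left of the limit in every setting drawn, and the caleosin and the acyltransferase (DGAT1) stay between 0 and 0.54.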

How the data were processed

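FPKM values, 1 per gene and library, are those the authors deposited. The submitters' processing notes name Bowtie 0.12.2 and B73 RefGen_v3. Not given in the sources used here are the FPKM program, its annotation and how triplicates were combined. The files write 0 as 1e-05, and such a gene is called listed at 0. Ratios of low values were smooth (no bin of 0.05 log2 units held over 2.20% of 4314 genes below 0.3 FPKM in both libraries), so depth is unknown and no counting interval is given. Starts count from 0 in the files and were raised by 1: of 307 predicted models shorter than 600 bases, 90.6% then have a length divisible by 3, against 4.56% otherwise.

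Each library was grouped by its genotype label. With 1 value per gene and genotype no test was possible. Names come from the files' descriptions and a RefSeq table of assembly NAM-5.0, from which no coordinates were taken and which matched 18189 IDs (54.6%) and 5 of the 6 genes. Lists are word and symbol matches. The 6 genes, the lists and the rules were chosen with earlier results of these data known. Named genes were the 6, all oil body genes and regulators, the 2 highest, 2 lowest and 2 most abundant genes at 5 FPKM or more in the synthesis and breakdown lists, and the 3 genes nearest to each of the 6. Other genes are named where a sum, a limit or a marker list turns on them. Alternatives were pseudocounts of 0.1 and 5, other minimums, centring, 3 scalings and a 4-fold limit. How often the calls are wrong was not tested, because each gene has 1 value per genotype. Python 3.11.15, numpy 2.4.6, pandas 2.3.3 and matplotlib 3.10.9 were used.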

Additional observations from a re-analysis of the deposited data

How the results depend on the processing

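Among the 6 genes the counts were 4 lower and 0 higher under each of the 9 settings. The oil body list had 6 to 8 lower and 0 higher, and the synthesis list 0 and 0. The median log2 ratio of the 6 was -2.96 with a pseudocount of 5, -3.57 centred, -3.60 by trimmed mean of M values, -3.61 by upper quartile and -3.58 by equal totals without zeins. The last 4 move every ratio down by construction, with dek33 over wild type factors of 1.36, 1.39, 1.40 and 1.37. The counts of 577 lower and 2118 higher genes over the whole table became 347 and 1038 with a pseudocount of 5, 247 and 1203 with a minimum of 20 FPKM (fewer genes), and 196 and 219 at 4-fold. Lower genes were 894 without a minimum. They became 974 and 632 after centring, 936 and 555 with the trimmed mean, 955 and 542 by upper quartile, and 919 and 575 without zeins. The single lower lipase became 0 with a pseudocount of 5 and at 4-fold, and 2 without a minimum. The steroleosin to oleosin ratio turned from -1.72 to 0.36 (log2 difference) with a pseudocount of 5, which adds most to the low steroleosin value. Counting both Zm-II genes as 1, and all settings for list medians and for ratios within a library, were chosen after seeing the data. No paired analysis was possible because there is 1 value per gene and genotype, and no replicate could be left out for the same reason. Unknown depth limits low values most, above all the 1.33 FPKM of steroleosin in dek33.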
